A study of Mus musculus with 12 samples.

Results

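The variable (Trav) and joining (Traj) segments of the T cell receptor alpha chain were examined in RNA-seq libraries of sorted mouse regulatory T cells. Members were the gene symbols starting with Trav or Traj with at least 10 counts summed over the 12 libraries, which gave 140 of the 55453 genes in the count table. They were 80 of the 128 Trav rows and all 60 Traj rows. Of the 188 rows of both kinds, 30 had no read and 18 had 1 to 9 reads. The members nearest above the limit were Trav15-3 with 13 counts, Trav23 with 17 and Trav9d-4 with 23, and the segments nearest below it were Trav15n-3 with 7 counts and Trav7-2, Trav4-1 and Trav7n-6 with 6 each. Level here means CPM, the counts scaled to library size, and share means the percentage that a segment took of the summed Trav or of the summed Traj counts of its library.

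The libraries came from CD4+Foxp3+ cells sorted from C57BL/6 mice and fell into 4 groups of 3. The groups were male CNS4 knockout (male KO), male CNS4 floxed, which the labels call wild type (male FL), female CNS4 knockout heterozygotes (female KO) and female CNS4 floxed heterozygotes (female FL). CNS4 is an enhancer of Foxp3, the X-linked gene of the transcription factor that defines regulatory T cells, and the study asked which genes differ between cells that have the enhancer and cells that lack it. The labels give neither ages nor the other allele of the heterozygotes, and no label says that libraries of a group came from different animals, so p-values measure the spread between these libraries. All groups shared the strain, the sort and the library kit, and the titles carry the letters Thy without spelling out the organ.

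Between 12423335 and 30244505 reads per library were assigned to genes. Foxp3, the gene whose enhancer was deleted, was at 1878, 1462 and 2037 CPM in male KO libraries and at 2675, 2588 and 2227 CPM in male FL libraries, and at 685, 1824 and 825 CPM in female KO libraries and 2582, 2658 and 2657 CPM in female FL libraries. KO values lay below FL values in both sexes, and female KO libraries 1 and 3 stood apart from female KO library 2. Every Trav and Traj member is annotated on the plus strand, and the table holds few reads of minus-strand genes.

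A T cell assembles its alpha chain gene by joining a V segment to a J segment, and the joined exon is spliced to the constant region Trac. Recombination starts with the J segments farthest from Trac and the V segments nearest to the J cluster and can move outward in further rounds on the same chromosome, so the position of a segment in the locus relates to when it is used. In C57BL/6 mice the V region holds near-identical blocks of segments, marked in their names by the letters d and n, and invariant natural killer T cells and mucosal-associated invariant T cells each use a fixed V and J pair.

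Shown are the joining segments with the most reads, Traj20, Traj19, Traj17, Traj21, Traj18 and Traj22. Traj8, a pseudogene with fewer reads than Traj13, is added because its level per kilobase is given below. Capitals mark the codons for phenylalanine, glycine, any residue and glycine (F-G-x-G), the turn that ends the CDR3 loop of the chain. The motif was searched on the plus strand in every frame as TTC or TTT, GGN, NNN and GGN, and it occurred once in 43 of the 60 Traj members, 71.7%, and never more than once. The sequences are those of GENCODE M21 transcripts on GRCm38, all from chromosome 14, from 5′ to 3′.
Traj20: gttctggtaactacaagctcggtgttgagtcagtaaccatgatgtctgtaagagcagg
Traj19: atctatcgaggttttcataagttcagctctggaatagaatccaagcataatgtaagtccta
Traj17: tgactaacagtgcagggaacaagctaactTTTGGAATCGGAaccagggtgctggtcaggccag
Traj21: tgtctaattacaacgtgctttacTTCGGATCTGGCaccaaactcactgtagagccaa
Traj18: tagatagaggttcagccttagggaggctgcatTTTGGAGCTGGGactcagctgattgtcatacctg
Traj22: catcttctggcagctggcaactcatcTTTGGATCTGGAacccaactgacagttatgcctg
Traj8: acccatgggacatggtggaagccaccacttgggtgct

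For the variable segments, the last 60 bases are shown for the Trav14 family, which had the most reads of any family, and for the other segments whose shares did not overlap between KO and FL libraries in either sex. Capitals mark TGTGC, the conserved cysteine codon and the first bases of the next codon where the CDR3 begins. TGTGC was found on the plus strand in these last bases of 64 of the 80 Trav members, 80%, and of 103 of all 128 Trav rows, 80.5%. The search took TGTGC in any frame, and in Trav9-2, not shown, the match lies ahead of the conserved codon.
Trav14-1: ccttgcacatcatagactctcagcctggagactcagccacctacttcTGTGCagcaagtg
Trav14-2: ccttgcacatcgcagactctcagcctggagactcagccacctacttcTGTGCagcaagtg
Trav14-3: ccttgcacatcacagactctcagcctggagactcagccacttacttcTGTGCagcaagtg
Trav14d-3-dv8: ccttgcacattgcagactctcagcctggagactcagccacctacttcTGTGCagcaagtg
Trav14n-3: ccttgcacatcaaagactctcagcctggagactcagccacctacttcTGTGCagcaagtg
Trav15-1-dv6-1: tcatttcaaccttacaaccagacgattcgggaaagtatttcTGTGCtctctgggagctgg
Trav4-4-dv10: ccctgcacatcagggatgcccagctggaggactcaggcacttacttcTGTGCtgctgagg

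The ends of the Trav14 copies differ at few bases, and near-identical copies may split reads or lose them. The count table lists reads without a unique position apart from the genes, at 14.1 to 17.3% of the reads of a library. Of the 128 Trav rows, 39 had no stretch of 50 bases absent from all other Trav, Traj and Trdv segments, and none of these 39 was a member, with at most 6 counts each over the 12 libraries. The 19 rows with 20 to 50% unique stretches had a median of 1122 counts per kilobase, and the 54 rows above that had 1144. Across the 128 rows the Spearman correlation of uniqueness with counts per kilobase was 0.693, and across the 80 members it was 0.0653, both as descriptions over segments that share libraries. Where a named segment has a close copy, its reads may be lost or counted for the copy. Trav14-1 is 91.6% identical to Trav14d-1 and Trav15-1-dv6-1 90.9% to Trav15d-1-dv6d-1, copies that held 1 and 0 counts. Of the 50-base stretches of Trav14-1 and Trav15-1-dv6-1, 95.1 and 91.9% are unique. Trav14-2 is 94.3% identical to Trav14-3 and Trav4-4-dv10 95.6% to Trav4d-4, copies that held 1361 and 0 counts. Of the stretches of Trav14-2 and Trav4-4-dv10, 54.4 and 46.8% are unique. Identity was taken over the longer sequence of each pair, so a difference in length counts as mismatch and lowers it.

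**Figure D1:**
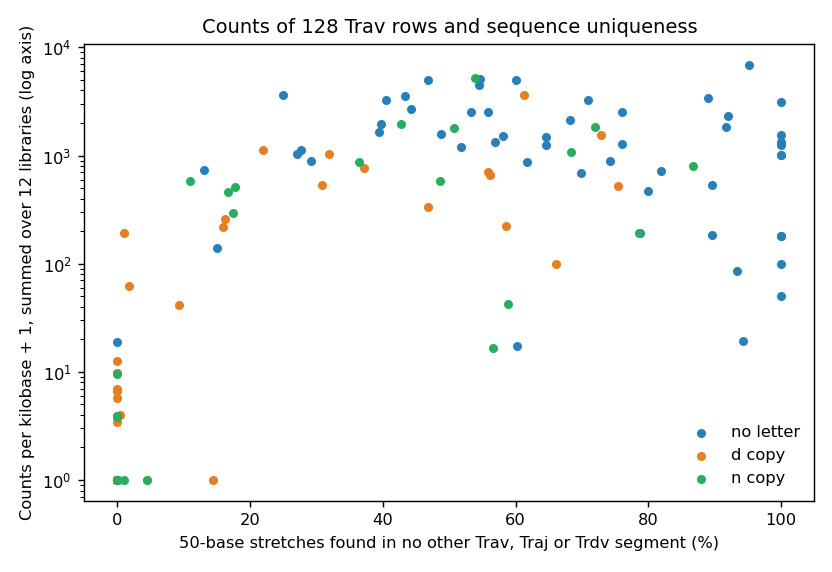
Each point is a Trav row: the horizontal axis gives the percentage of its 50-base stretches found in no other Trav, Traj or Trdv segment, and the vertical log axis its counts per kilobase plus 1, summed over the 12 libraries. Colours separate segments named with d, with n and with no letter; the 39 rows without a unique stretch lie at the lower left.

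By locus order, the blocks differed in how many of their segments had reads. The d block kept 17 of its 39 rows as members and 10.2% of all Trav counts, and the n block 13 of 34 rows and 13.2%. The third copy of the block, whose names carry no letter, kept 36 of 40 rows and 65.6% of the counts. The median percentage of unique 50-base stretches per row was 0.347 in the d block, 0.493 in the n block and 55.2 in the third block. How far the counts of the blocks follow uniqueness and how far use was not tested. The 8 single segments at the 5′ end, Trav1 to Trav6-2, held 7 members and 6.00%, and the 7 segments nearest to the J cluster, Trav17 to Trav23, were all members and held 5.06%.

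Among Trav members, reads were spread over many segments. The 37 members with a mean share of at least 1% held 82.2% of Trav counts, and the effective number of segments, the exponential of the Shannon entropy of the shares, was 49.3 to 52.4 per library. Trav14-1 had the highest mean share at 5.98%, with libraries between 4.61 and 8.22%. Trav3-3 followed at 4.54%, Trav14n-3 at 4.06%, Trav4-4-dv10 at 3.81%, Trav14-2 at 3.77%, Trav13-1 at 3.64%, Trav14d-3-dv8 at 3.58% and Trav7-4 at 3.50%. The ranges of these 7 over the libraries overlapped one another, so their order is not firm. The 5 members of the Trav14 family together held 20.3% (18.4 to 22.3%), more in every library than any other family, of which the next were Trav7 with 8 members and 10.5 to 12.9% and Trav9 with 7 members and 9.02 to 11.8%.

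**Figure D2:**
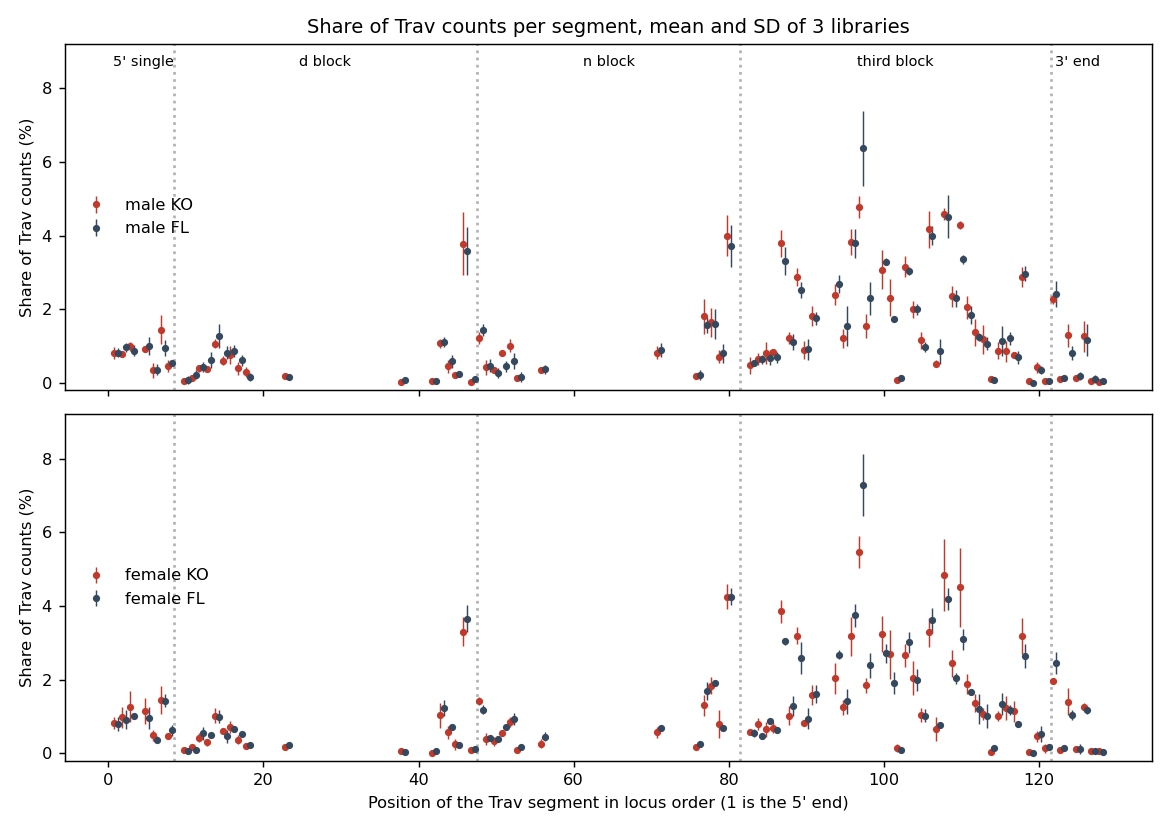
Share of Trav counts per segment in locus order, from the 5′ end at the left, with males above and females below; points are means and bars SDs of 3 KO or 3 FL libraries, and dotted lines separate the blocks. Most of the counts lie in the third block, where Trav14-1 is the tallest segment in FL libraries of both sexes.

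The joining segments had an effective number of 35.0 to 39.6 per library among 60 members. The 27 members with a mean share of at least 1% held 83.2% of Traj counts. As there were 80 Trav members, the effective numbers do not show which class had the more even shares. Shares formed a peak in the part of the cluster near Trac: Traj11 to Traj20 held 42.0% of Traj counts, Traj21 to Traj30 23.1%, Traj1 to Traj9 12.1%, Traj31 to Traj40 9.66%, Traj41 to Traj50 6.73%, Traj51 to Traj60 5.96% and Traj61, the segment farthest from Trac, 0.359%. The highest mean shares were 7.77% for Traj20, 7.48% for Traj19, 6.75% for Traj17, 6.04% for Traj21, 4.94% for Traj18, 4.03% for Traj22, 3.55% for Traj13 and 3.40% for Traj9. Traj20, Traj19, Traj17 and Traj21 had overlapping ranges over the libraries, and the lowest mean share, 0.139%, was that of Traj31.

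**Figure D3:**
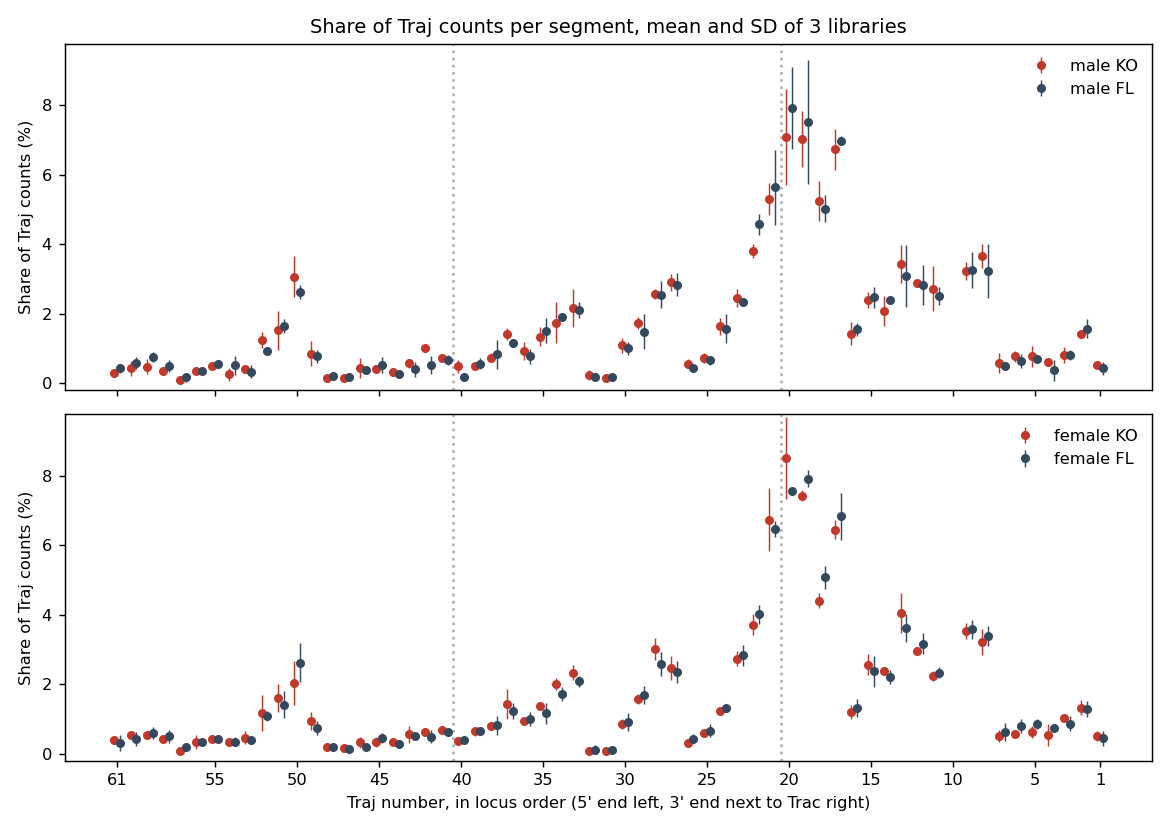
Share of Traj counts per segment in locus order, from the 5′ end of the cluster at the left to the end next to Trac at the right, with males above and females below; points are means and bars SDs of 3 KO or 3 FL libraries, and dotted lines separate Traj41 to Traj61, Traj21 to Traj40 and Traj1 to Traj20. In all 4 groups the shares peak around Traj17 to Traj21, and a smaller peak stands at Traj50.

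The 2 joining segments with the most reads, Traj20 and Traj19, are among the 17 whose reference sequence lacks F-G-x-G. Those 17, of which GENCODE annotates 8 as pseudogenes, held 32.3% of Traj counts on average (30.8 to 34.9% over the libraries). Traj33 and Traj38 have tryptophan in place of the phenylalanine and are counted among the 17. Per kilobase of segment, the 17 had a median level of 24.8 CPM per kilobase, against 22.8 for the 43 with the motif. GENCODE's pseudogene class divided the V and J members in different ways on this scale. The 9 Traj pseudogenes had a median level of 24.8 CPM per kilobase, against 23.1 for the 51 Traj genes, and Traj8, a pseudogene of 37 bases, reached 155. The 11 Trav pseudogenes had a median level of 1.01 CPM per kilobase, against 6.45 for the 69 Trav genes. Whether a J segment was read as part of a joined V-J exon or as unjoined sequence cannot be told apart in gene counts. The constant gene Trac, at 1958 CPM per kilobase, was far above every member on the same scale, the highest being Traj20 with 229.

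The first comparison asks whether KO cells held more or less V and J sequence in all. Summed Trav levels were 238, 223 and 215 CPM in male KO libraries and 247, 228 and 225 CPM in male FL libraries. In females they were 332, 230 and 243 CPM in KO libraries and 262, 280 and 264 CPM in FL libraries. The groups overlapped in both sexes, with female KO library 1 the highest of all. Summed Traj levels averaged 148 ± 13.2 CPM in male KO and 155 ± 16.6 CPM in male FL libraries, and 192 ± 30.7 CPM in female KO and 185 ± 4.50 CPM in female FL libraries (SD, n = 3 each), again with overlap. In bulk RNA, fewer cells of a type and less RNA per cell cannot be told apart.

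Set against the constant region, V and J counts lay lower in female KO libraries. Trac was at 2539, 1817 and 2159 CPM in female KO libraries and at 1741, 1780 and 1725 CPM in female FL libraries, without overlap, and its log2 difference was 0.31 with an SE of 0.12 and a Benjamini-Hochberg adjusted p of 0.210 in edgeR's quasi-likelihood fit. Per 100 Trac counts, there were 13.1, 12.6 and 11.3 Trav counts in female KO libraries and 15.0, 15.7 and 15.3 in female FL libraries. Each female KO library, including library 2 with the higher Foxp3, lay below every female FL library. The male ratios overlapped, at 12.9 ± 0.939 in KO and 14.1 ± 0.493 in FL libraries (SD, n = 3 each). Traj counts per 100 Trac counts showed the same arrangement, with 8.86 ± 0.166 in female KO against 10.6 ± 0.229 in female FL libraries and overlapping male groups. These ratios are sums over chosen members and were given no test.

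**Figure D4:**
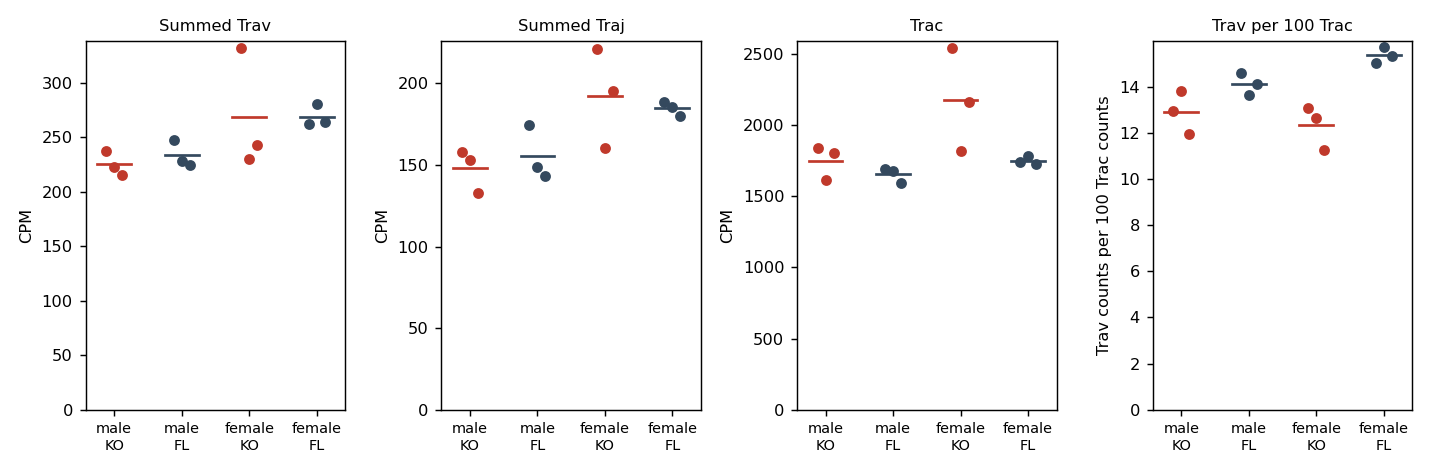
Summed Trav and summed Traj levels and the Trac level in CPM, and Trav counts per 100 Trac counts, with 1 point per library and lines at the mean of each group's 3 libraries. Trav and Traj sums overlap between KO and FL, while Trav counts per 100 Trac counts are lower in all 3 female KO libraries than in the 3 female FL libraries.

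The second comparison asks whether single segments changed. A filter on low counts left 118 members, 64 Trav and 54 Traj, among the 12411 genes tested, and 22 members were not tested. With edgeR's quasi-likelihood fit and Benjamini-Hochberg adjusted p-values over those genes, 0 of 118 members passed an adjusted p of 0.05 in level in males, in females, in the mean of both sexes or in the female minus male difference. Across all genes, 0.0242% were called in males, 0.201% in females, 3.31% in the mean of both sexes and 0% in the difference. Without adjustment, 5 members had p under 0.05 in males, 2 in females, 7 in the mean of both sexes and 1 in the difference, and in the mean the 7 were 5.93% of members against 20.2% of all genes tested. DESeq2 called 0 members in males, females and the difference and 2 in the mean of both sexes, Trav15-1-dv6-1 and Trav6d-4, both lower in KO. Its background over all genes was 1.87% in males, 5.9% in females, 9.4% in the mean and 0% in the difference, so the 2 members, 1.69% of those tested, lay below it. The median log2 difference of the mean of both sexes was -0.05 for Trav, -0.01 for Traj and -0.02 for all genes.

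The same held for shares, tested with the summed Trav or Traj count of the library as the offset. edgeR's quasi-likelihood test called 0 members in any of the 4 contrasts, where the background over all genes was 0.0242% in males, 0.218% in females, 3.31% in the mean of both sexes and 0% in the difference, with unadjusted p under 0.05 for 7 members in males, 3 in females, 8 in the mean of both sexes and 2 in the difference. Those were 5.93, 2.54, 6.78 and 1.69% of members, below the 8.14, 19.2, 20.3 and 2.76% of all genes tested. DESeq2 called 2 members in the mean, Trav14-1 and Trav4-4-dv10, and 0 in the other contrasts, against 9.41% of all genes in the mean, 1.87% in males, 5.91% in females and 0% in the difference. The 8 members with unadjusted p under 0.05 in the mean were Trav14-1, Trav15-1-dv6-1 and Trav6d-4 with lower shares in KO libraries, and Trav4-4-dv10, Trav4-3, Trav7-4, Trav19 and Traj42 with higher ones.

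Read by overlap, KO and FL shares did not overlap in 9 of the 118 tested members in males, 7.63%, against 14.3% of all genes tested, and in 14 in females, 11.9%, against 25% of all genes. In both sexes and in the same direction, 3 members stood apart, 2.54%, against 5.76% of all genes. These 3 percentages of members lie below those of all genes, where genes other than members were compared in CPM and not in share. Many members rest on few counts, so the lower percentages do not show that segments changed less than other genes. The 3 members were Trav14-1, Trav15-1-dv6-1 and Trav4-4-dv10, and no Traj member was among them.

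Trav14-1, the V segment with the most reads, took 5.13, 4.61 and 4.62% of Trav counts in male KO libraries, against 6.97, 6.93 and 5.20% in male FL libraries. In females it took 5.56, 5.01 and 5.86% in KO libraries, against 8.22, 6.63 and 6.98% in FL libraries. Every KO library lay below every FL library of its sex, and the gap in males was small because male FL library 4 was close to male KO library 1. The log2 difference in share over both sexes was -0.41 with an SE of 0.12 and an adjusted p of 0.100 in edgeR's quasi-likelihood fit, which missed the threshold, while DESeq2 gave -0.41 and an adjusted p of 0.00948. At this depth, 204 of 2943 Trav reads in male FL library 2 give 6.93% with a Wilson 95% interval of 6.07 to 7.91%, which covers counting error only. The other Trav14 members did not share this arrangement: shares of Trav14-2, Trav14-3, Trav14d-3-dv8 and Trav14n-3 overlapped in both sexes.

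Trav15-1-dv6-1, which follows Trav14-1 directly in the locus and can also join to delta chain segments, took 1.72, 1.75 and 1.18% in male KO libraries, against 1.98, 2.82 and 2.11% in male FL libraries. In females it took 1.60, 1.96 and 1.97% in KO libraries, against 2.78, 2.24 and 2.16% in FL libraries. KO libraries were again the lower ones in both sexes, without overlap. Its log2 difference over both sexes was -0.47 (SE 0.16, adjusted p 0.145, edgeR's quasi-likelihood test).

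Trav4-4-dv10, another segment shared with the delta chain, had higher shares in KO libraries. It took 4.39, 4.19 and 4.29% in male KO libraries, against 3.23, 3.47 and 3.38% in male FL libraries, and 5.72, 4.11 and 3.70% in female KO libraries, against 2.86, 3.02 and 3.41% in female FL libraries. No KO library overlapped the FL libraries of its sex, and female KO library 1 was the highest. Its log2 difference over both sexes was 0.45 (SE 0.13, adjusted p 0.0995, edgeR's quasi-likelihood test), and DESeq2 gave an adjusted p of 0.0170. The 4 members of the Trav4 family summed to 7.60, 6.42 and 7.46% in male KO libraries, against 5.72, 5.78 and 5.73% in male FL libraries, and to 9.54, 7.78 and 6.25% in female KO libraries, against 5.54, 5.77 and 5.61% in female FL libraries, also without overlap. This family sum contains Trav4-4-dv10 itself and is no separate support. All families from Trav1 to Trav23 were looked at, without a test. Others than Trav4 stood apart in a single sex, Trav15, Trav10 and Trav2 in males and Trav9, Trav8 and Trav17 in females. As background, KO and FL values did not overlap in 14.3% of all genes tested in males and in 25% in females. Trav4-3, the next in the family by reads, had a log2 difference of 0.45 (SE 0.17, adjusted p 0.183, edgeR's quasi-likelihood test).

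**Figure D5:**
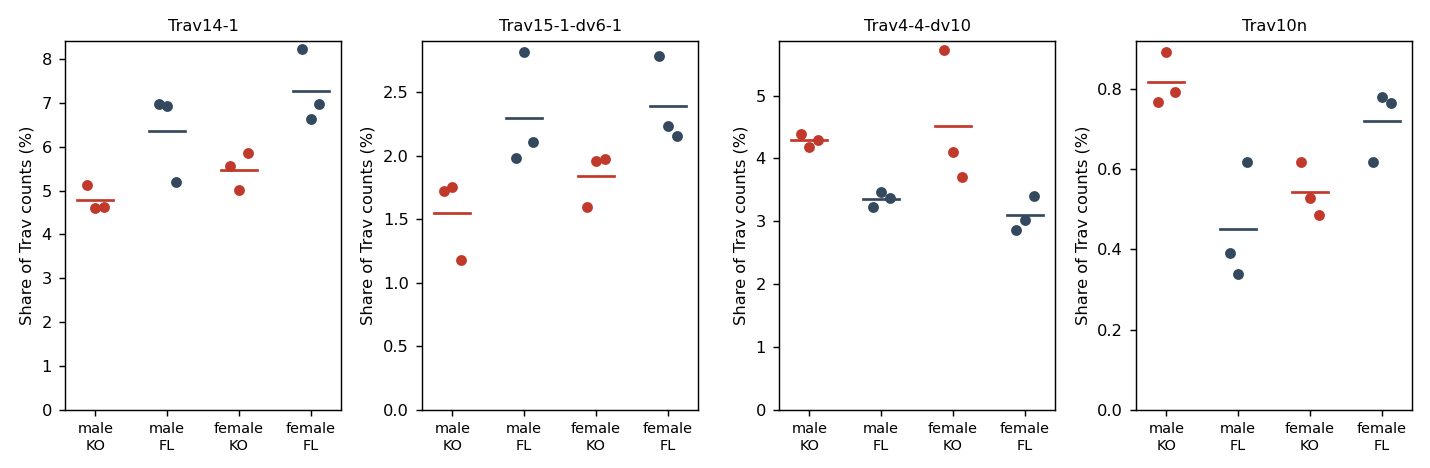
Share of Trav counts of Trav14-1, Trav15-1-dv6-1, Trav4-4-dv10 and Trav10n, with 1 point per library and lines at group means. KO libraries are lower than FL libraries of the same sex for Trav14-1 and Trav15-1-dv6-1 and higher for Trav4-4-dv10, while Trav10n is higher in male KO and lower in female KO libraries.

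By position in the locus, the d block took 9.95, 10.4 and 9.47% of Trav counts in male KO libraries, against 11.4, 10.7 and 11.1% in male FL libraries. In females it took 9.68, 9.11 and 9.32% in KO libraries, against 10.2, 10.9 and 10.1% in FL libraries. KO libraries were lower in both sexes without overlap, by 1.14 points in males and 1.03 points in females. The shares of all blocks were looked at and given no test, and only 17 of the 39 d block rows were members. The n block was lower in female KO libraries, at 12.8 ± 0.480%, than in female FL libraries, at 13.8 ± 0.558%, and the third block was higher there, at 66.2 ± 0.639% in KO and 64.7 ± 0.481% in FL libraries (SD, n = 3 each), while male values of both overlapped. The 7 segments nearest to the J cluster held 5.18 ± 0.331% in male KO and 4.89 ± 0.821% in male FL libraries, and 4.98 ± 0.396% in female KO and 5.07 ± 0.268% in female FL libraries, with overlap in both sexes. Among them, Trav17 was lower in female KO libraries without overlap, at 1.97 ± 0.0539% against 2.46 ± 0.297% in female FL libraries, and Trav19 overlapped in both sexes. Trav18, Trav20 and Trav21-dv12, at mean shares of 0.130, 0.142 and 1.22%, overlapped in both sexes, as did Trav16, Trav16n and Trav16d-dv11 at 1.12, 1.75 and 0.582%.

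In the J cluster, the 3 classes Traj1 to Traj20, Traj21 to Traj40 and Traj41 to Traj61 overlapped between KO and FL libraries. Traj1 to Traj20 together held 53.5 ± 0.287% in male KO and 53.9 ± 1.82% in male FL libraries, and 54.1 ± 1.11% in female KO and 55.0 ± 1.65% in female FL libraries. Traj21 to Traj40 held 32.6 ± 0.620% in male KO and 32.6 ± 1.28% in male FL libraries, and 33.4 ± 0.562% in female KO and 32.6 ± 1.04% in female FL libraries (SD, n = 3 each). Both classes overlapped in both sexes, as did Traj41 to Traj61 as a whole, the end segment Traj61 and Traj2, which had a mean share of 1.40%. Of the classes of 10 numbers, Traj41 to Traj50 stood apart in males, at 7.78 ± 0.501% in KO and 6.62 ± 0.178% in FL libraries, and overlapped in females, at 6.20 ± 0.508% in KO and 6.30 ± 0.502% in FL libraries (SD, n = 3 each). The most read segment, Traj20, took 6.96, 5.79 and 8.53% in male KO and 7.99, 9.07 and 6.70% in male FL libraries, and 8.51, 7.32 and 9.67% in female KO and 7.45, 7.60 and 7.63% in female FL libraries. Those values overlapped in both sexes, with a log2 difference of 0.01 (SE 0.14, adjusted p 0.985, edgeR's quasi-likelihood test).

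The spread among libraries of a group was set against sampling noise. Chi-square per degree of freedom between the 3 libraries of a group was 1.26 to 2.22 for Trav shares and 1.19 to 1.67 for Traj shares, where 1 is sampling noise alone, and 2.03 to 7.54 for the beta chain V segments (Trbv). Spread beyond sampling noise raises this value more where segments hold more counts. Summed Trbv levels were 680 to 1160 CPM over 22 to 24 segments, and summed Trav levels 215 to 332 CPM over 69 to 71 segments. The values therefore do not rank the classes by spread. The distance between the Trav profiles of a pair of libraries, taken as the percentage of counts that would have to move to another segment to make them equal, had a median of 11.2% and reached 12.1% between male KO and male FL libraries, and was 8.51 to 11.9% among male KO and 8.77 to 12.1% among male FL libraries. In females it was 9.75 to 13.2% between KO and FL libraries, 10.4 to 12.4% among KO and 7.64 to 8.77% among FL libraries. For Traj it was 8.64 to 11.6% between KO and FL libraries in males and 6.41 to 9.28% in females, 9.44 to 10.7% and 7.73 to 8.35% among KO libraries of those sexes, and 9.55 to 11.6% and 7.15 to 9.06% among FL libraries. The ranges between KO and FL libraries overlapped those among KO libraries in both sexes and classes. They also overlapped those among FL libraries, except for Trav in females, where all lay above the FL range. Between summed KO and summed FL counts, chi-square per degree of freedom was 2.85 in males and 3.66 in females for Trav. It was 1.38 and 1.07 for Traj and 10.3 and 7.80 for Trbv. In each sex, Trav and Trbv values lay above those among libraries of a group, and Traj values below. These values were given no test.

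Segments of invariant receptors were looked at by name. Traj18, the J segment of invariant natural killer T cells, took 4.61, 5.40 and 5.74% of Traj counts in male KO and 5.03, 4.64 and 5.44% in male FL libraries, and 4.28, 4.29 and 4.65% in female KO and 5.09, 4.75 and 5.41% in female FL libraries. The male groups overlapped and the female KO libraries were lower, with a log2 difference in females of -0.21 (SE 0.16, adjusted p 0.473, edgeR's quasi-likelihood test). Its V partners Trav11 and Trav11d have no unique stretch and had 2 and 4 counts in all, so they were not members. Trav1 and Traj33, the pair of mucosal-associated invariant T cells, overlapped in both sexes, with mean shares of 0.814% of Trav and 2.18% of Traj counts. Of 5 marker genes of these cells, Zbtb16 and Klrb1 had at most 1 count in any library and Klrb1c was at 0 in all, and these 3 are minus-strand genes. The summed level of the 5, carried by Slamf6 and Sh2d1a, was 737 to 896 CPM in male KO and 536 to 559 CPM in male FL libraries, and 783 to 1080 CPM in female KO and 562 to 582 CPM in female FL libraries. With the other 3 genes hardly read, this sum does not show how many such cells were present. Its part in the segment shares was not tested.

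Other genes of receptor assembly were read from lists, in level and as the mean of both sexes. As background, edgeR's quasi-likelihood test called 3.31% of all genes, 2.68% higher and 0.637% lower, and DESeq2 called 9.4%. An unadjusted p under 0.05 in edgeR's test was found for 20.2% of all genes. Of the 6 constant genes 4 were tested, and 4 of the 5 genes listed with the CD3 complex, a list that includes Ptcra. From each list edgeR's quasi-likelihood test called 0, with unadjusted p under 0.05 for 2 of the constant genes, Trac and Trbc1, and 0 of the CD3 list. DESeq2 also called 0 of each. Cd3e, Cd3g and Ptcra are minus-strand genes with at most 600, 655 and 1 counts in any library. Of 11 recombination genes 8 were tested, 0 were lower and 1 was higher, Xrcc5, a subunit of the Ku end-joining complex, with 159, 127 and 137 CPM in male KO and 114, 129 and 123 CPM in male FL libraries, and 223, 177 and 195 CPM in female KO and 134, 124 and 139 CPM in female FL libraries. The male groups overlapped and the female groups did not, and the log2 difference was 0.40 (SE 0.09, adjusted p 0.0385, edgeR's quasi-likelihood test). DESeq2 called 2 of the list higher and 0 lower, Xrcc5 and Xrcc6, the other Ku subunit, which had a log2 difference of 0.30 (SE 0.09, adjusted p 0.112 with edgeR), with overlap in males and none in females. Rag1, Lig4, Nhej1, Xrcc4 and Atm are minus-strand genes with at most 58 counts in any library. Among them Rag1, Lig4 and Nhej1 were not tested. Of 9 transcription factors that act on the locus, all tested, 0 were higher and 1 was lower, Lef1, which binds the Tcra enhancer. It was at 756, 714 and 967 CPM in male KO and 1229, 1400 and 978 CPM in male FL libraries, and at 800, 764 and 812 CPM in female KO and 942, 1012 and 981 CPM in female FL libraries. KO libraries were lower in both sexes, with a log2 difference of -0.43 (SE 0.10, adjusted p 0.0463). DESeq2 called Lef1 and Gata3 lower, and Gata3, Tcf3, Tcf12, Runx1, Tcf7 and Myb are minus-strand genes with at most 180 counts in any library. Beside these, the summed level of 10 markers of immature double-positive thymocytes, 6 of them plus-strand genes, was 399 to 725 CPM in male KO and 531 to 663 CPM in male FL libraries, and 719 to 1289 CPM in female KO and 669 to 853 CPM in female FL libraries, with overlap in both sexes. Themis alone ranged from 188 to 534 CPM over the libraries. The part of this summed level was not tested.

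Among other V segments, 20 of 35 Trbv genes were tested and 0 were called by edgeR's quasi-likelihood test, 0 had an unadjusted p under 0.05 and DESeq2 called 0, with log2 differences between -0.22 and 0.23. Of 6 Trdv genes, which lie among or behind the last Trav segments, 2 were tested, and both had an unadjusted p under 0.05 in the mean of both sexes. The share of all genes with such a p in edgeR's quasi-likelihood test was 20.2%. edgeR and DESeq2 each called 1 of the Trdv genes, where they called 3.31% and 9.4% of all genes. Trdv2-2, between Trdv2-1 and Trav23 in the locus, was lower in KO at 2.39, 3.18 and 2.70 CPM in male KO and 8.49, 5.43 and 5.91 CPM in male FL libraries. In females it was at 5.55, 4.22 and 5.98 CPM in KO and 8.98, 8.08 and 6.55 CPM in FL libraries, so KO and FL did not overlap in either sex. Its log2 difference over both sexes was -0.92 (SE 0.17, adjusted p 0.0186, edgeR's quasi-likelihood test). Trdv1, the other one tested, was at 2.77 ± 0.925 CPM in male KO and 1.84 ± 0.221 CPM in male FL libraries, and 2.44 ± 0.442 CPM in female KO and 1.76 ± 0.230 CPM in female FL libraries (SD, n = 3 each). Its log2 difference over both sexes was 0.52 (SE 0.19, adjusted p 0.172, edgeR's quasi-likelihood test), without overlap in either sex. Trav23, the neighbour of Trdv2-2, with 17 counts in all, was below the filter.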

How the data were processed

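Libraries were made from total RNA with a stranded kit, per the labels' protocols. The deposited values are raw read counts per gene symbol without normalization, made by the authors on mm9 with HTSeq 0.6.1p1, STAR (versions 2.3.0e and 2.5.2b) and CASAVA, tools that the submitters' processing notes list without order; the strand setting is not given in the sources used here. The 5 summary rows, with reads outside features at 44.3 to 46.9%, were left out. Order, strand, type and sequence of segments came from GENCODE M21 by symbol, on a later build, so no coordinates are given. Trgc1 and Trgc2 were not analysed here. A result among the listed transcription factors is not reported here. Members and lists were chosen with earlier results of these data known.

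Counts were fitted with edgeR 4.0.16 in R 4.3.3 (filterByExpr, TMM, robust quasi-likelihood, 1 mean per group, 12 libraries), with Benjamini-Hochberg adjustment over 12411 genes, once with library sizes and once with summed Trav or Traj counts as offsets of members. The method was tested on simulated data. Alternatives were DESeq2 1.42.0, other scalings and filters, a replicate block, single sexes, omitted libraries and other class limits. Named by rule were the 8 most read Trav and 8 most read Traj, members past the threshold, non-overlapping members of at least 1% share, invariant-receptor segments, Trav14, Trav16 to Trav21-dv12, Traj2 and Traj61; Trav6d-4, Trav4-3, Traj42, Traj8 and Trav10n were named after their values were seen. KO and FL libraries were paired by nothing in the labels.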

Additional observations from a re-analysis of the deposited data

Results flagged for a closer look

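Trav10n, a V segment of the n block, lay in opposite directions in the sexes. It took 0.768, 0.892 and 0.794% of Trav counts in male KO and 0.390, 0.340 and 0.619% in male FL libraries, and 0.618, 0.529 and 0.486% in female KO and 0.619, 0.781 and 0.765% in female FL libraries. Every male KO library lay above every male FL library, and every female KO library lay below every female FL library, although female KO library 1 and female FL library 1 nearly met. The female minus male difference on the log2 scale was -1.25 (SE 0.38, unadjusted p 0.00728, adjusted p 0.891, edgeR's quasi-likelihood test), which missed the threshold. Trav10n holds 301 counts over the 12 libraries, and 36.4% of its 50-base stretches are unique. Its identity to Trav10d over the longer sequence was 83.7%. Trav10n has 343 bases and Trav10d 406, and this difference in length counts as mismatch. The last 60 bases of both are the same, so the count of Trav10n may be split with close copies.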

How the results depend on the processing

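Counts of called members stayed at 0 in males, in females and in the sex difference under every alternative run, in level and share. In the mean of both sexes DESeq2 called 2 members by level and 2 by share. Leaving out single libraries gave 0 to 1 called by level and 0 to 2 by share; the calls came without female KO library 2, for Trav6d-4 by level and for Trav6d-4 and Trav4-4-dv10 by share, where 2940 of all genes were called. Adjusted p-values over 20 alternatives were 0.00948 to 0.347 for Trav14-1, 0.0592 to 0.528 for Trav15-1-dv6-1 and 0.0170 to 0.356 for Trav4-4-dv10, and the direction held in each. The block by replicate number called 0 members in each contrast and gave Trav14-1 -0.46 (adjusted p 0.0845 by edgeR). Correlations of same-numbered libraries were 0.442 and -0.614 in males and 0.189, 0.279 and -0.225 in females, so the numbers do not pair them. Without female KO libraries 1 and 3, 0 members were called, and the female KO minus FL log2 differences of the summed levels were -0.23 for Trav and -0.21 for Traj, against -0.00 and 0.06 with them. The share of Trav families 16 to 21, KO minus FL, was -0.06 points in males and -0.24 in females, and with families 13 to 21 it was -2.05 and -3.39. The wider range adds the families Trav13, Trav14 and Trav15, and with them Trav14-1 and Trav15-1-dv6-1, whose lower KO shares are given above. The cause of the changes in summed level and of the lower shares was not tested. With 1919 to 5668 summed counts per class and library, segments near 1% rest on few reads, and 22 members were below the filter.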
